A study of Mus musculus with 20 samples.

Results

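The brain pair consists of 2 bulk RNA-seq libraries of wild-type mice, 1 from an animal group given DHEA and 1 from the control group labelled "sasame oil", of the 20 libraries in the series. DHEA (dehydroepiandrosterone) is an adrenal steroid and a precursor of androgens and oestrogens, and in nervous tissue it also counts among the neurosteroids. The series covers 10 tissues with 1 library for each tissue and treatment, and the comparison asks what differs in the brain of treated animals. Total RNA was taken from homogenised tissue. The dose, the duration, the age, sex and strain of the mice, the number of animals behind a library and the part of the brain that was taken are not stated in the labels used here. Genes were chosen by 1 rule: the symbol occurs once in the deposited table and the mean of the 2 brain libraries is at least 5 FPKM (fragments scaled to gene length and library size). That left 7596 of 24769 genes. The brain label fitted its markers: Snap25, a synaptic protein of all neurons, stood at 354 FPKM in the control and 294 FPKM in the DHEA library, and at no more than 1.72 FPKM in the 18 libraries of other tissues.

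The 2 libraries differed most in genes that mark single brain regions. Cerebellar, hindbrain, olfactory bulb and choroid plexus transcripts were lower in the DHEA library, some of them at or near 0. Transcripts of cortical and hippocampal neurons were higher. Genes of neurons in every region were close to equal, with a median log2 ratio of -0.10 over 29 genes. With 1 library a side and no record of the dissected part, the regional make-up of the samples and the treatment cannot be told apart.

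As background, the mammalian brain is built of regions whose neurons carry distinct transcription factors, receptors and peptides. Granule cells of the cerebellum are the most numerous neurons and carry the GABA-A subunit Gabra6, whereas excitatory neurons of the cortex and hippocampus carry Neurod6 and the calmodulin-binding protein Nrgn. The choroid plexus, which makes cerebrospinal fluid, secretes transthyretin (Ttr). In bulk RNA, fewer cells of a type and less RNA per cell cannot be told apart.

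The upstream windows of the markers are shown because these genes carried the largest differences in each direction. Each covers the 250 bases before the annotated start in the RefSeq table (build GRCm38.p6), 5′ to 3′ on the gene's strand, which is the minus strand for all 4 genes. Capitals mark E-boxes of the forms CAGATG (also read as CATCTG on the other strand) and CAGCTG, hexamers that proneural factors of the Neurod family are known to bind. Gabra6 lies at chr11:42321073-42321322, Cbln3 at chr14:55884257-55884506, Nrgn at chr9:37552746-37552995 and Neurod6 at chr6:55681264-55681513. Ttr is named only.
Gabra6: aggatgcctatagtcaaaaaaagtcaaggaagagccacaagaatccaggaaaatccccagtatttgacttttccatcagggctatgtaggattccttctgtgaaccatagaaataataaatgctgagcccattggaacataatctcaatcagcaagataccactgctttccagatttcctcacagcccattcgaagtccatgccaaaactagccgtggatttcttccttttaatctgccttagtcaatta
Cbln3: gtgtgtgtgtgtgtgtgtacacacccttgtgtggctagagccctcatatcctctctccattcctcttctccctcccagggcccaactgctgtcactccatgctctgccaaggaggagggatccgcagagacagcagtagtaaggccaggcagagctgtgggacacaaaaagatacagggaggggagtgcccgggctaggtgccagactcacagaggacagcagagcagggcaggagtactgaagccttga
Nrgn: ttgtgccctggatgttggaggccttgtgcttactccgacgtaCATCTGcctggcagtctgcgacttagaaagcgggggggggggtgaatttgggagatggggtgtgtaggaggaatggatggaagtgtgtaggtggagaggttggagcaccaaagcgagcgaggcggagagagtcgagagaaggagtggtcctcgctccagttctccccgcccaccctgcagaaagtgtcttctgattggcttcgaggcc
Neurod6: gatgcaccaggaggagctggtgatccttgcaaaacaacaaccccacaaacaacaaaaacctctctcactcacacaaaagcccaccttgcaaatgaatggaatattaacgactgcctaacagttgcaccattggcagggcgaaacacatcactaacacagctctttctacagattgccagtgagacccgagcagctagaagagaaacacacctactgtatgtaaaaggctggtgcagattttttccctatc
Nrgn held 1 such hexamer and the other three windows held 0. Of 27025 genes with a window in the table, 25.3% held either form within these 250 bases, 14.5% CAGATG and 12.8% CAGCTG. Among the granule cell genes, 1 of the 13 with a window held one, and among the forebrain projection neuron genes 2 of 17. Such matches describe letters only.

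The control library held 20710011 reads in genes and the DHEA library 16426013, within a range of 13206956 to 20710011 over the series. At 5 FPKM, a 2 kb gene corresponds to 209 reads in the control and 166 in the DHEA library, so counting error was small against most differences below. Folds are ratios of FPKM, and the range in brackets after a fold is its 95% interval (exact, Clopper-Pearson) for counting error alone. There was no replicate, so no p-value is given, and variation between mice was not measured. Log2 ratios were taken of FPKM + 1, DHEA over control, which understates the difference of low genes. Counts of genes as 2-fold higher, 2-fold lower or within 2-fold use this log2 scale, so a gene whose plain FPKM ratio is just over 2 can be counted as within; where that changes a list's count, both are given.

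Of the 7596 genes, 408 (5.37%) were at least 2-fold higher in the DHEA library and 431 (5.67%) at least 2-fold lower, 11.0% in either direction. By the plain FPKM ratio, 461 were higher and 516 lower. The median log2 ratio was -0.06, and the quartiles lay at -0.33 and 0.22. The tail was longer on the lower side: 44 genes were at least 8-fold lower and 16 at least 8-fold higher, while 4-fold differences numbered 103 on each side. Of the 80 genes from 12 lists of regional markers that passed the 5 FPKM rule, 66 were 2-fold different. The lists cover little of the whole: among 7397 genes in no regional or cell type list, 747 (10.1%) were still 2-fold different, 380 higher and 367 lower. The genes next to the limits lay at log2 ratios of 1 and 0.9999 in size, and at pair means of 5.001 and 4.999 FPKM.

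**Figure D1:**
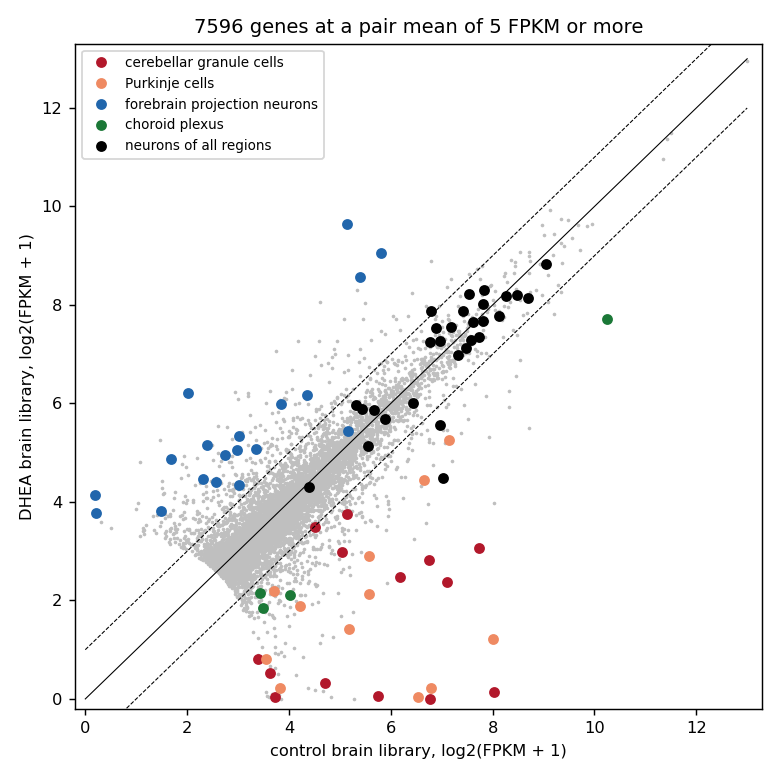
Level of each gene in the control library (x axis) and the DHEA library (y axis), both as log2(FPKM + 1); each point is 1 gene, grey for all 7596 and coloured for 5 marker lists, the solid line marks equality and the dashed lines 2-fold. Granule and Purkinje cell genes lie below the lower dashed line, forebrain projection neuron genes above the upper one except for 1 gene, and most genes of neurons in all regions lie between.

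Cerebellar granule cell genes were lower in the DHEA library without exception. All 17 listed genes were lower, and the 14 at 5 FPKM or more were each at least 2-fold lower (against 5.67% of all genes), with a median log2 ratio of -3.82. Gabra6, the alpha 6 subunit of the GABA-A receptor, stood at 108 FPKM (5620 reads) in the control and had 0 reads in the DHEA library, which makes it at least 1491-fold lower against a floor of 3 reads. Cbln3, a secreted partner of the synapse organiser Cbln1, went from 258 FPKM to 0.0988 FPKM, with 26276 reads against 8. That is 2615-fold lower (95% interval 1327 to 6057). Both genes were thus at or next to 0 in the DHEA library.

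Other granule cell genes kept some reads. Fat2, an atypical cadherin of granule cell axons, stood at 53.1 FPKM in the control and 0.0414 FPKM in the DHEA library. Cbln1 stood at 212 and 7.32 FPKM, and Zic1, a zinc finger factor of granule cells and of some forebrain and brainstem cells, at 136.6 and 4.16 FPKM. Summed over the list, the level was 1104 FPKM in the control and 54.4 FPKM in the DHEA library. Gabra6 had 0 reads in each of the 18 libraries of other tissues.

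Purkinje cells, the output neurons of the cerebellar cortex, showed the same direction. At 5 FPKM or more, 12 of 12 listed genes were at least 2-fold lower (against 5.67% of all genes). Their median log2 ratio was -3.09. Pcp2, a G protein regulator of Purkinje cells, went from 92.2 to 0.0329 FPKM (3523 reads against 1). Ppp1r17, a phosphatase inhibitor of these cells, went from 109 to 0.171 FPKM, 638-fold lower (273 to 1967). Car8, a carbonic anhydrase-related protein, went from 254.9 to 1.34 FPKM, 190-fold lower (154 to 238). Itpr1, the inositol trisphosphate receptor, is abundant in Purkinje cells but present in many neurons, and was 3.78-fold lower (3.70 to 3.85), at 140.6 and 37.2 FPKM.

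Genes of forebrain projection neurons, the excitatory cells of cortex and hippocampus, were higher in the DHEA library. Of 19 listed genes at 5 FPKM or more, 18 were at least 2-fold higher (against 5.37% of all genes), 0 were lower, and the median log2 ratio was 2.31. Nrgn stood at 34.3 FPKM in the control and 797 FPKM in the DHEA library, 23.2-fold higher (21.8 to 24.8). Neurod6, a transcription factor of these neurons, stood at 3.07 and 73.7 FPKM, 24.0-fold higher (20.2 to 28.7). Camk2a, the alpha subunit of the calcium and calmodulin-dependent kinase of excitatory synapses, stood at 55.2 and 531 FPKM, 9.62-fold higher (9.41 to 9.84).

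Fezf2 was among the genes closest to 0 in the control. This factor, which specifies deep-layer output neurons of the cortex, had 9 reads in the control and 845 in the DHEA library, or 0.141 and 16.7 FPKM, 118-fold higher (61.8 to 259). Neurod2 was the exception, named here after its value was seen: it stood at 34.5 and 42.7 FPKM, a log2 ratio of 0.30. It is also made by cerebellar granule cells. The summed level of the list was 255.7 FPKM in the control and 2267 FPKM in the DHEA library.

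Hippocampal genes shared this direction. Of 6 at 5 FPKM or more, 5 were at least 2-fold higher (against 5.37% of all genes). The 5 under that level were higher too. Spink8, a marker of CA1 pyramidal cells, had 4 reads in the control and 151 in the DHEA library (0.233 and 11.1 FPKM). C1ql2, a synaptic protein of dentate gyrus mossy fibres, stood at 1.05 and 14.9 FPKM, 14.1-fold higher (10.4 to 19.7). Cpne7, a calcium-dependent membrane-binding protein, stood at 1.84 and 20.4 FPKM. Wfs1, found in CA1 and in other forebrain cells, was 2.27-fold higher (2.12 to 2.44).

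Striatal projection neurons did not follow the cortex. Of 10 listed genes at 5 FPKM or more, 1 was 2-fold higher, 3 were 2-fold lower and 6 lay between (2, 3 and 5 by the plain FPKM ratio). The shares over all genes were 5.37% higher and 5.67% lower on the log2 scale. The median log2 ratio of the list was 0.28. Ppp1r1b, the dopamine-regulated phosphatase inhibitor of these cells, stood at 62.4 FPKM in the control and 29.7 FPKM in the DHEA library. Penk, the enkephalin precursor, stood at 84.7 and 40.9 FPKM. The summed level was 256.9 and 225 FPKM.

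**Figure D2:**
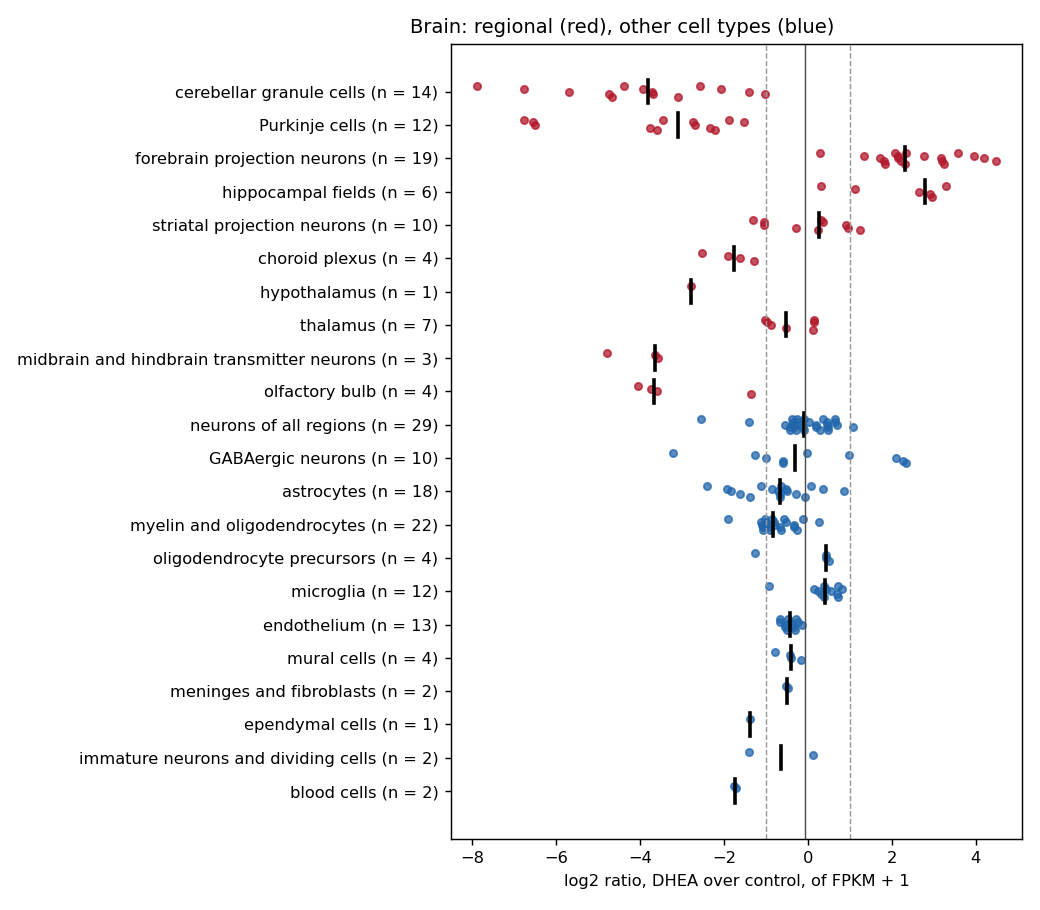
Log2 ratio of FPKM + 1, DHEA over control (x axis), of each listed gene at a pair mean of 5 FPKM or more, by list (y axis, with the number of genes); red lists are regional, blue lists are cell types found in several regions, black bars are medians, dashed lines mark 2-fold and the grey line the median of all 7596 genes. The cerebellar lists lie wholly at -1.02 or below, 18 of 19 forebrain projection neuron genes above 1, the neuron list on both sides of 0, 11 of 12 microglia genes above 0 and all 13 endothelium genes below 0, both within the dashed lines.

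The choroid plexus list was lower as a whole. All 19 genes were lower in the DHEA library, but only 4 reached 5 FPKM. All 4 were at least 2-fold lower (against 5.67% of all genes), with a median log2 ratio of -1.77. Ttr, the thyroxine and retinol carrier that the choroid plexus secretes, stood at 1215 FPKM in the control and 210 FPKM in the DHEA library, 5.79-fold lower (5.602 to 5.98). Clic6, a chloride channel protein, stood at 15.2 and 3.32 FPKM, and Trpm3, a cation channel, at 10.2 and 2.62 FPKM. Ttr remained the bulk of the list's summed level, 1304 and 230 FPKM. None of these genes was at 0 reads in either library.

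Hypothalamic genes gave little to compare. Of 30 listed, 29 stayed under 5 FPKM: 6 of these were higher and 18 lower in the DHEA library, and 5 had 0 reads in both. Many peptide genes that mark the hypothalamus had few reads in both: Hcrt had 1 and 2 reads, Pmch 3 and 4, Oxt 2 and 0, Avp 7 and 0, Agrp 9 and 4, Pomc 26 and 10, and Gnrh1 6 and 0. At these counts most of the peptide genes do not allow a comparison. Crh, which cortical interneurons also make, stood at 4.42 and 4.83 FPKM.

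Trh, the precursor of thyrotropin-releasing hormone, was the hypothalamus gene that passed 5 FPKM. It stood at 12.3 and 0.912 FPKM (355 reads against 21), 13.5-fold lower (8.67 to 22.0), and it is also made in the hindbrain and olfactory bulb. Otp had 119 reads in the control and 1 in the DHEA library, Calcr 60 and 0, and Gal 38 and 4. Dlk1 stood at 5.86 and 0.956 FPKM, Baiap3 at 4.30 and 1.12 FPKM, and Irs4 had 80 and 11 reads. Tac2 went the other way, at 0.590 and 2.27 FPKM, and Magel2 had 51 and 28 reads. Of the rest, Mc3r had 13 and 2 reads, Ghsr 10 and 11, and Nkx2-1 3 and 9. Sim1, Hmx3, Fezf1 and Kiss1 had 1 and 0, Qrfp had 2 and 1, and Ghrh, Six6, Hmx2, Rax and Nr5a1 had 0 in both.

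Hindbrain Hox genes had no reads in the DHEA library. Hox genes pattern the hindbrain and spinal cord and are known to be largely silent in front of them. Of 15 listed, 14 were detected in the control with 10 to 102 reads each, and all 15 had 0 reads in the DHEA library. None reached 5 FPKM. In the list of midbrain and hindbrain transmitter neurons, 3 of 19 genes reached 5 FPKM and all 3 were lower. Of the 16 others, 15 were lower, 1 had 0 reads in both libraries and several kept reads in the DHEA library, such as Ddc (291 and 120) and Tph2 (146 and 31), named after their values were seen. Slc6a5, the glycine transporter of inhibitory hindbrain neurons, stood at 27.4 FPKM in the control and 0.0250 FPKM in the DHEA library, 1094-fold lower (374 to 5306). Glra1, the adult glycine receptor subunit, stood at 11.7 and 0.0747 FPKM, and Th, the first enzyme of dopamine and noradrenaline synthesis, at 16.5 and 0.407 FPKM.

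Olfactory bulb genes were lower as well, 4 of 4 at 5 FPKM or more and 6 of 6 below that level. Omp, the protein of mature olfactory sensory neurons, had 582 reads in the control and 2 in the DHEA library (12.99 and 0.0561 FPKM). Cdhr1, a cadherin of mitral and tufted cells, stood at 28.1 and 1.40 FPKM. Calb2, the calcium buffer calretinin, found in bulb interneurons and also in granule cells of the cerebellum, stood at 259 and 14.8 FPKM, 17.5-fold lower (15.9 to 19.4).

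Thalamic genes differed less: 1 of 7 at 5 FPKM or more was 2-fold lower and 6 lay between on the log2 scale of FPKM + 1, and 2 were lower by the plain FPKM ratio. Over all genes, 5.67% were 2-fold lower on the log2 scale. By sign, 3 of these 7 thalamic genes were above 0 and 4 below. Of the 7 under 5 FPKM, 5 were higher in the DHEA library and 2 lower. Adarb1, an RNA-editing enzyme, stood at 46.4 and 22.3 FPKM. Slc17a6, the vesicular glutamate transporter of thalamus and brainstem, stood at 14.3 and 6.72 FPKM, 2.12-fold lower (1.93 to 2.33). Of the pituitary list, 8 genes were in the table and 0 reached 5 FPKM, with summed levels of 0.584 and 0.185 FPKM.

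Genes of neurons in all regions were close to equal in total, with summed levels of 5042 FPKM in the control and 4949 FPKM in the DHEA library. Of 29 genes, 26 lay within 2-fold, 1 was higher and 2 lower. Cplx1, a presynaptic complexin, stood at 414 and 282 FPKM. The neurofilament genes Nefh (129.7 and 21.5 FPKM) and Nefm (123.5 and 46.3 FPKM) were lower. Syt1, the calcium sensor of forebrain synapses, was 2.13-fold higher (2.09 to 2.17). Thick myelinated axons of hindbrain and cerebellum are rich in neurofilaments, as background.

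GABAergic neurons split by subtype. Pvalb, the calcium buffer of fast-spiking interneurons and of Purkinje cells, stood at 417 FPKM in the control and 44.4 FPKM in the DHEA library, 9.39-fold lower (8.72 to 10.1). Sst, the somatostatin gene of cortical interneurons, stood at 42.8 and 208.6 FPKM, 4.87-fold higher (4.47 to 5.32). Cck, the cholecystokinin gene of forebrain neurons, stood at 29.7 and 154 FPKM, 5.19-fold higher (4.803 to 5.61). The list as a whole had 3 of 10 genes 2-fold higher, 2 lower and 5 between (4, 3 and 3 by the plain FPKM ratio). On the log2 scale, the shares over all genes were 5.37% higher and 5.67% lower.

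Astrocyte and myelin genes leaned lower. Of 18 astrocyte genes 6 were 2-fold lower (against 5.67% of all genes), 12 lay between and the median log2 ratio was -0.66. S100b, a calcium-binding protein of astrocytes and of Bergmann glia in the cerebellum, stood at 321 and 60.1 FPKM, 5.33-fold lower (5.05 to 5.64). Agt, the angiotensin precursor, stood at 60.3 and 15.2 FPKM, and Slc4a4, a bicarbonate transporter, at 52.4 and 14.0 FPKM. Of 22 myelin genes 7 were 2-fold lower (8 by the plain FPKM ratio), with a median of -0.82. Mbp, the major myelin protein, stood at 650 and 307.5 FPKM, 2.12-fold lower (2.09 to 2.14), and Trf, the transferrin gene of oligodendrocytes, at 353 and 93.8 FPKM. Choroid plexus also makes Trf.

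Microglia and vessel genes differed less. All 12 microglia genes at 5 FPKM or more lay within 2-fold on the log2 scale of FPKM + 1 (11 of 12 by the plain FPKM ratio), with 11 above 0 and a median of 0.42. The exception by the plain ratio was Sall1, a factor of microglia, at 8.305 and 3.90 FPKM, named here after its value was seen. All 13 endothelium genes lay within 2-fold on both scales, with 13 below 0 and a median of -0.42. The 4 mural cell genes and the 2 of meninges and fibroblasts also lay within 2-fold, at medians of -0.41 and -0.49. Of 4 oligodendrocyte precursor genes, 1 was lower. Both blood cell genes that reached 5 FPKM, of red cells, were lower, and of the 9 other blood cell genes 6 were lower and 3 higher. Hba-a1, an alpha globin, stood at 76.8 and 21.8 FPKM and Hbb-bt, a beta globin, at 18.7 and 4.96 FPKM. Globin genes have near-identical copies, so reads may be split among them. Foxj1, the ciliogenesis factor of ependyma, stood at 7.90 and 2.45 FPKM, and Cd24a, of immature neurons and ependyma, at 13.2 and 4.36 FPKM. The part of these cell type differences in the genes described next was not tested.

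GABA-A receptors are chloride channels of 5 subunits, and DHEA sulphate and other neurosteroids are known to act on them. Of 10 subunit genes at 5 FPKM or more, 2 were 2-fold higher, 2 lower and 6 between. Over all genes, 5.37% were 2-fold higher and 5.67% lower. Beside Gabra6, Gabrd, the delta subunit of extrasynaptic receptors that granule cells pair with alpha 6, was lower at 34.1 and 12.4 FPKM (2.75-fold, 2.51 to 3.02). Gabra5, the hippocampal alpha subunit, was higher at 12.6 and 37.9 FPKM (a log2 ratio of 1.51, fold interval 2.76 to 3.26). Gabra4, which pairs with delta in the forebrain, was higher at 4.27 and 15.9 FPKM (3.72-fold, 3.37 to 4.11).

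Other subunits at this level lay within 2-fold. Gabrb2 stood at 11.98 and 9.33 FPKM, Gabra3 at 15.8 and 29.3 FPKM, and Gabrb1 at 3.68 and 6.94 FPKM. Under 5 FPKM, Gabra2 stood at 2.69 and 5.33 FPKM and Gabrg3 at 0.906 and 2.32 FPKM. Gabrg1 stood at 2.32 and 1.53 FPKM, Gabrq at 1.64 and 0.191 FPKM, and Gabre at 0.677 and 0.0381 FPKM.

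Ionotropic glutamate receptors showed the same division. Of 13 at 5 FPKM or more, 3 were 2-fold higher, 3 lower and 7 between, against 5.37% higher and 5.67% lower over all genes. Grin2b, the NMDA receptor subunit of forebrain neurons, stood at 5.14 and 25.6 FPKM, 4.98-fold higher (4.78 to 5.202). Grin2c, the NMDA subunit of granule cells, stood at 32.1 and 6.86 FPKM, 4.67-fold lower (4.28 to 5.12). Gria4, an AMPA subunit of cerebellum and brainstem, stood at 44.3 and 11.0 FPKM, whereas Gria1, rich in hippocampus, stood at 104 and 145.5 FPKM.

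**Figure D3:**
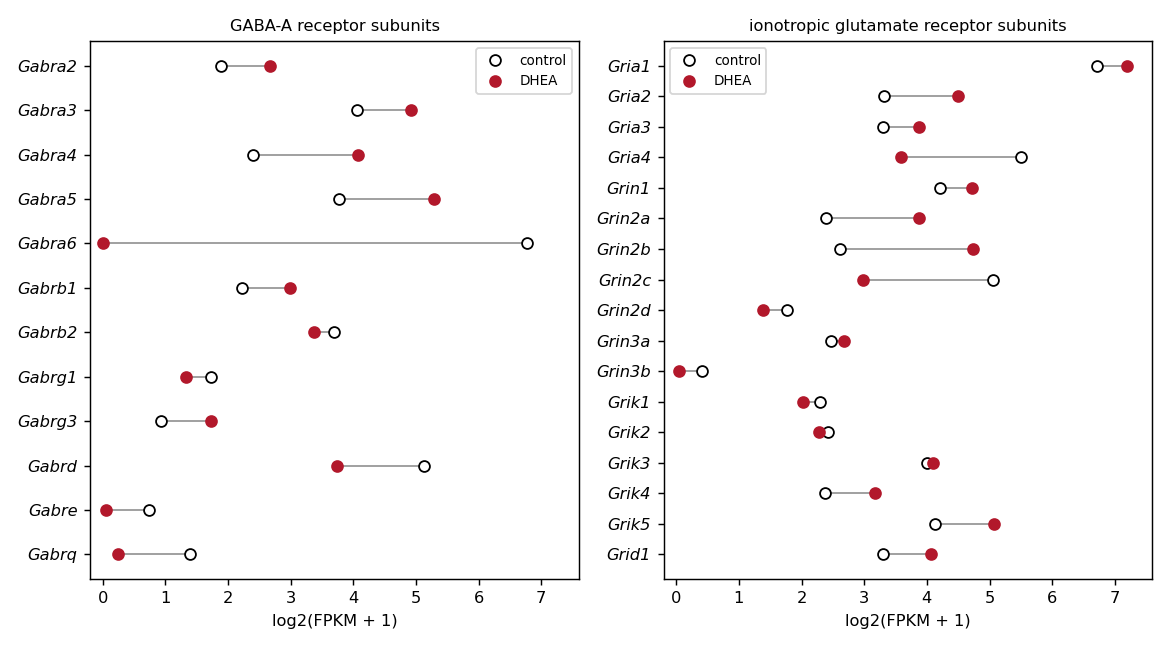
Level, as log2(FPKM + 1) on the x axis, of 12 GABA-A receptor subunit genes (left) and 17 ionotropic glutamate receptor subunit genes (right) in the control library (open) and the DHEA library (red), 1 library each. Gabra6 has the longest line, down to 0 in the DHEA library, while Gabra4, Gabra5 and Grin2b lie to the right in the DHEA library.

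Receptors for steroids differed by less than 2-fold apart from 2 genes at this level. Of 8 at 5 FPKM or more, 1 was 2-fold higher, 1 lower and 6 between, and their median log2 ratio was 0.01. The share of all genes that were 2-fold different in either direction was 11.0%. Nr3c2, the mineralocorticoid receptor, which is strongest in hippocampus, stood at 6.47 and 19.5 FPKM, 3.01-fold higher (2.78 to 3.26). Paqr8, a membrane progestin receptor, stood at 81.0 and 35.8 FPKM, 2.26-fold lower (2.17 to 2.35). Nr3c1, the glucocorticoid receptor, stood at 11.0 and 11.6 FPKM. Pgrmc1 stood at 108 and 148 FPKM, Pgrmc2 at 29.8 and 29.0 FPKM, Paqr7 at 20.03 and 16.8 FPKM and Paqr9 at 9.14 and 13.9 FPKM.

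The oestrogen and progesterone receptors were low in both libraries. Esr1, the oestrogen receptor alpha, had 42 and 66 reads (0.147 and 0.290 FPKM), and Esr2 8 and 6 reads. Pgr, the progesterone receptor, stood at 1.48 and 3.32 FPKM, 2.24-fold higher (1.92 to 2.61). Gper1 stood at 0.981 and 0.948 FPKM and Paqr5 at 1.55 and 0.942 FPKM. Paqr6, whose pair mean was under 5 FPKM, stood at 8.21 and 1.39 FPKM. It was 5.93-fold lower (4.48 to 7.98), the largest difference in the steroid receptor list.

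Of 30 genes of steroid synthesis and conversion in the table, 9 reached 5 FPKM: 1 was 2-fold higher, 1 lower and 7 between. Among all genes, 11.0% were 2-fold different in either direction. Cyp46a1, the neuronal cholesterol 24-hydroxylase, stood at 13.5 and 41.7 FPKM, 3.09-fold higher (2.87 to 3.34). Hsd11b1, which reactivates glucocorticoids, stood at 10.5 and 4.55 FPKM, 2.31-fold lower (2.03 to 2.63). Hsd17b12, a ketoreductase of fatty acid elongation, stood at 52.4 and 40.2 FPKM. Of 19 cholesterol synthesis genes at 5 FPKM or more, 18 lay within 2-fold on the log2 scale of FPKM + 1 (15 by the plain FPKM ratio, with 4 lower), 17 were below 0 and the median log2 ratio was -0.51. Insig1, the sterol-regulated retention protein, stood at 47.1 and 20.3 FPKM, 2.32-fold lower (2.16 to 2.49). The myelin list, whose cells make much sterol, had a median of -0.82 in the same pair, and its part in this was not tested. In other tissues, all 23 cholesterol synthesis genes were below 0 in liver (median -0.91) and 22 in ovary (-0.82). In uterus 21 of 23 were above 0 (0.91). Spleen had 17 below 0, and intestine 17, thymus 16 and lung 14 above 0. Kidney had 12 above 0 and heart 11.

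Immediate early genes, which neurons switch on within minutes of activity, differed in both directions. Of 19 at 5 FPKM or more, 4 were 2-fold higher, 3 lower and 12 between, against 5.37% higher and 5.67% lower over all genes. Egr3, a zinc finger factor, stood at 5.05 and 45.4 FPKM, 8.998-fold higher (8.16 to 9.94), and Homer1, a postsynaptic scaffold, at 4.79 and 20.8 FPKM. Fos, the classical member, went the other way at 18.1 and 5.37 FPKM, 3.38-fold lower (2.90 to 3.94), and Egr1 stood at 24.1 and 39.7 FPKM.

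Glucocorticoid targets lay within 2-fold on the log2 scale of FPKM + 1 in 11 of 12, and in 9 of 12 by the plain FPKM ratio, with 2 lower. On the log2 scale, 11.0% of all 7596 genes were 2-fold different in either direction. The counts of glucocorticoid, clock and heat shock genes given here lay near that share. Zbtb16, a zinc finger factor, was higher at 1.97 and 12.6 FPKM, while Tsc22d3 stood at 28.6 and 14.2 FPKM and Klf9 at 46.7 and 48.4 FPKM. Clock genes lay within 2-fold in 11 of 12, the exception being Npas2, a Clock partner of the forebrain, at 2.87 and 11.7 FPKM. All 15 genes of the unfolded protein response lay within 2-fold, as did 9 of 10 heat shock genes. The heat shock exception was Bag3, a chaperone partner, at 12.7 and 2.84 FPKM. All 30 oxidative phosphorylation genes, 40 ribosomal protein genes and 10 housekeeping genes also lay within 2-fold, with medians of -0.24, 0.12 and 0.07. Mitochondrially encoded genes took 2.52% of reads in the control and 2.36% in the DHEA library.

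Outside the lists, several brain-enriched genes with the largest ratios are known from the same structures. Miat, a nuclear noncoding RNA of neurons, stood at 1.11 and 27.0 FPKM, and Enc1, an actin-binding protein of cortical neurons, at 23.4 and 267 FPKM. Hpca, the hippocampal calcium sensor, stood at 39.2 and 314 FPKM, 8.01-fold higher (7.67 to 8.36). On the lower side S100a5, of olfactory sensory neurons, had 342 reads in the control and 0 in the DHEA library. Grm4, the metabotropic receptor of granule cell terminals, stood at 59.6 and 4.10 FPKM. Rgs8, of Purkinje cells, stood at 105.6 and 14.5 FPKM, and Syt2, the synaptic calcium sensor of hindbrain and cerebellum, at 102.6 and 11.0 FPKM.

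To set regional genes apart from the rest without a marker list, the 7596 genes were split by the control libraries of the 9 other tissues. Genes at 5 FPKM or more in all 9 were called shared, and genes whose brain mean was at least 10 times the highest of the 9 were called brain-enriched. Of 2603 shared genes, 69 (2.65%) were 2-fold different, 14 higher and 55 lower, with a median log2 ratio of -0.10 and an SD of 0.368. Of 610 brain-enriched genes, 226 (37.0%) were, 142 higher and 84 lower, with a median of 0.26 and an SD of 1.47. The other 4383 genes lay between, at 12.4%. The brain-enriched class used the mean of the same 2 brain libraries, so a gene could enter it through 1 library alone. Nrgn, at 34.3 FPKM in the control brain and 31.4 FPKM in control spleen, entered through the DHEA library. The shared class was set by the other tissues, apart from the 5 FPKM rule in brain and the removal of genes called brain-enriched. The percentages of the classes are therefore not a like comparison. A gene shared by tissues may still vary between brain regions.

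**Figure D4:**
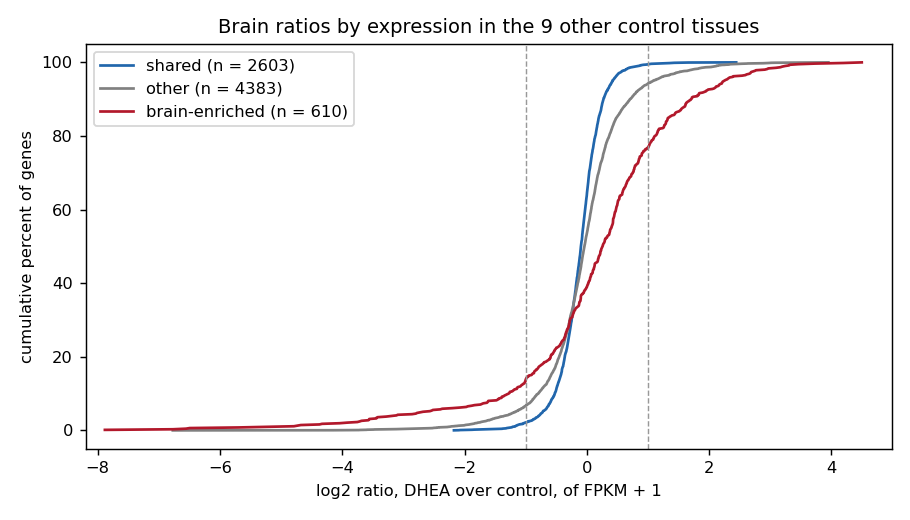
Cumulative percent of genes (y axis) by log2 ratio of FPKM + 1, DHEA over control (x axis), for the shared (blue, 2603 genes), other (grey, 4383) and brain-enriched (red, 610) classes; dashed lines mark 2-fold. The shared curve is steep around 0 and the brain-enriched curve is drawn out on both sides.

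The share of shared genes with a 2-fold difference was larger in 2 of the 9 other tissue pairs than in brain. It was 10.1% in uterus (labelled Utery) and 8.34% in intestine, 2.27% in spleen, 1.42% in liver, 1.27% in ovary, 0.960% in lung, 0.384% in heart, 0.231% in kidney and 0.115% in thymus. In brain, none of the 69 genes was in a regional or cell type list, but only 10 of all 2603 shared genes were. None of the 69 had the same sign in all 9 other tissue pairs, against 13 (0.499%) of all 2603 shared genes. In at least 1 other pair, 11 (15.9%) were 2-fold different in the direction of the brain, against 296 (11.4%) of all shared genes. The median number of other pairs with the same sign was 5 of 9, the same as over all 2603 shared genes.

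Among shared genes, Mmd, a membrane receptor-like protein of the Paqr family, had the highest ratio. It stood at 21.9 FPKM in the control and 123.7 FPKM in the DHEA library, 5.65-fold higher (5.35 to 5.96), while its log2 ratio in the other pairs ran from -1.14 to 0.89. Pld3, a lysosomal nuclease of neurons, stood at 55.0 and 176 FPKM, Ppp3r1, the regulatory subunit of calcineurin, at 143.5 and 368 FPKM, and Arf3, a small GTPase of the Golgi, at 136.8 and 329 FPKM. Malat1, a nuclear noncoding RNA, stood at 16.9 and 52.2 FPKM, and its brain log2 ratio of 1.58 lay inside the range of the other pairs, -1.08 to 1.69.

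On the lower side Icmt, which methylates prenylated proteins, stood at 75.1 and 15.9 FPKM, 4.73-fold lower (4.47 to 5.01), and lay between -0.24 and 0.50 on the log2 scale elsewhere. Hpcal1, a calcium sensor rich in Purkinje cells, stood at 113 and 25.9 FPKM. Sparc, a matrix protein of glia and vessels, stood at 319 and 74.9 FPKM, 4.26-fold lower (4.13 to 4.39). H2-D1, a classical major histocompatibility class I gene, stood at 47.1 and 11.4 FPKM, and Btg1, an antiproliferative factor, at 30.2 and 8.24 FPKM. Class I genes are near-identical, so reads may be split between H2-D1 and its relatives.

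**Figure D5:**
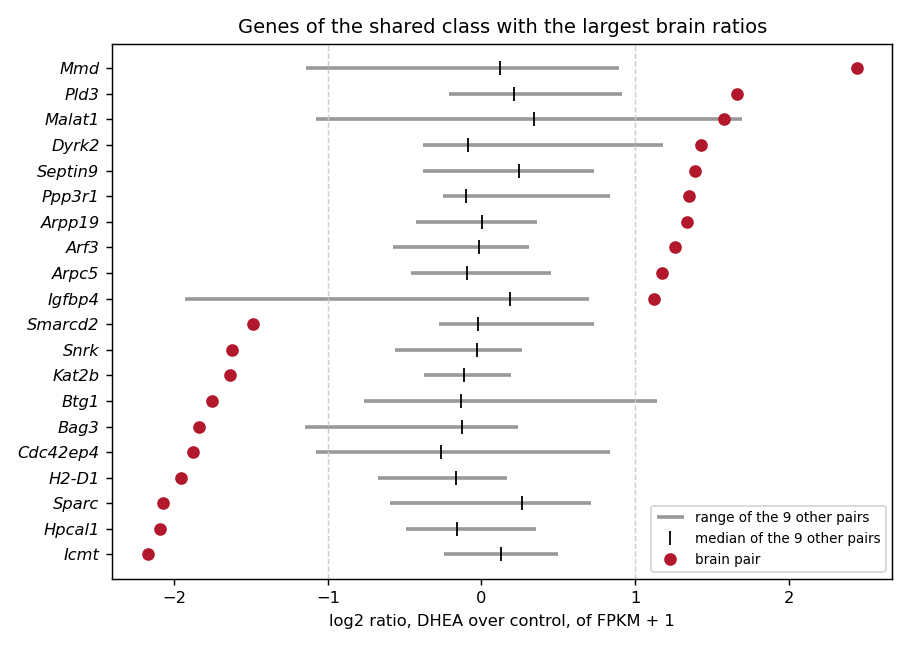
Log2 ratio of FPKM + 1, DHEA over control (x axis), of the 10 highest and 10 lowest shared genes that are in no regional or cell type list (y axis); red points are the brain pair, black ticks the median and grey lines the range of the 9 other tissue pairs, 1 library a side in each. The genes were picked for their brain ratio, which sets the place of the red points; the medians of the other pairs lie between -0.26 and 0.34.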

How the data were processed

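Per the labels, each tissue of wild-type mice was dissected and homogenised, and total RNA was sequenced on an Illumina instrument; the series text calls the libraries bulk, although sample descriptions also read "10x Genomics". The authors deposited 1 table of FPKM values and 1 table of log2 fold values (11372 genes, DHEA over control). The submitters' processing notes name HISAT2 2.0.5 and the builds hg38 and mm39; the counter, annotation and strand setting were not stated there or in the labels, so antisense partners and near-identical genes cannot be told apart. FPKM values of all 24826 rows (100%) were whole multiples of 1 read at a relative tolerance of 1e-10, which gave the reads and totals. Repeated symbols (28, in 57 rows) were dropped. Log2 ratios used a pseudocount of 1 FPKM and a pair mean of 5 FPKM; folds used FPKM with exact intervals, and a floor of 3 reads. The recovery and interval steps were tested on simulated data. Genes named are the 10 most extreme per side (all genes, brain-enriched, shared), the 3 largest ratios and 2 highest levels per list, the 5 markers, and all steroid receptor, GABA-A and hypothalamus genes; some genes under this rule are counted in their lists but not reported by name here. The genes, the 40 lists (701 genes in the table) and the thresholds were chosen with earlier results of these data known. Python 3.11.15, pandas 2.3.3, scipy 1.17.1 and matplotlib 3.10.9 were used. No p-value was computed, since each group had 1 library.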

Additional observations from a re-analysis of the deposited data

How the results depend on the processing

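No paired analysis was possible because each group had 1 library. With a pseudocount of 5 FPKM, 265 genes were 2-fold higher, 264 lower, and 2 choroid plexus genes lower. With a pair mean of 1 FPKM (12427 genes), 734 were lower, with 14 choroid plexus genes lower and 1 hypothalamus gene higher and 4 lower. With a pair mean of 10 FPKM (4799 genes), 273 were lower, with 1 choroid plexus gene. With no filter (20146 genes), 661 were higher and 804 lower, with 14 choroid plexus genes lower and 1 hypothalamus gene higher and 5 lower. The authors' deposited table holds 6461 of the 7596 genes and gave 207 higher and 294 lower; it has 2 Purkinje cell genes, both lower, 3 forebrain projection neuron genes, all higher, and none of the granule cell genes counted here. The larger side turned with scaling: 408 higher and 431 lower as deposited became 440 and 385 after centring on the median, 427 and 410 without mitochondrial and the 100 most abundant genes, and 432 and 400 scaled to the shared class. The plain FPKM ratio, chosen after seeing the data, gave 461 and 516. Of 191 named genes, 0 reversed under the 9 other alternatives; of the 111 past 2-fold, 16 fell under it in at least 1. Reads limit the hypothalamic, Hox and pituitary genes, most of which had under 100 reads.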

Other observations

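Interferon-stimulated genes were lower in the DHEA brain library in 19 of 19 cases, with a median log2 ratio of -0.62. The median of the 7596 genes at 5 FPKM or more was -0.06, but most of the list lay under that level. The share of all genes below 0, at either level, is not given here, so the sign count has no background beside it. Only 2 of 19 reached 5 FPKM, with a median of -0.86. Ifi27, an interferon-induced mitochondrial protein, stood at 24.5 FPKM in the control and 14.3 FPKM in the DHEA library, 1.71-fold lower (1.503 to 1.95). Stat2, a signal transducer of the interferon receptor, stood at 8.37 and 3.73 FPKM, 2.24-fold lower (1.99 to 2.53). All 19 stayed below 0 after centring on the median of the 7596 genes. The microglia list, whose cells are a source of such transcripts, had 19 of its 20 genes above 0 in the same pair, and the endothelium list, another source, had 14 of its 15 below 0 (median -0.37). The part of either in this was not tested.

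This list was looked at in the other tissues after its values in brain were seen. It had 18 of 19 genes below 0 in kidney (median -0.41), 17 in intestine (-1.13) and 16 in heart (-0.14). Lung had 14 below 0 (-0.14), liver 13 (-0.18) and thymus 12 (-0.16), while spleen had 10 above 0 and 9 below (0.002). The list had 17 above 0 in ovary (0.17) and 15 in uterus (0.36), so the direction was not shared by all tissues. Genes of antigen presentation were below 0 in 13 of 14 cases in brain (median -0.58), in 13 of 14 in heart and kidney, and in all 14 in liver, lung and spleen. The other tissues were mixed: 10 of 14 were below 0 in intestine, 9 in thymus, 8 in ovary and 6 in uterus, where the median was 0.09. Which tissues came from the same animal is not given, so the tissue pairs may not be independent.

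H2-K1, a class I gene, stood at 11.9 and 5.28 FPKM in brain, and B2m, the light chain of class I molecules, at 88.1 and 60.0 FPKM. The blood cell genes Hba-a1 and Hbb-bt were also lower in this pair, and their part in the immune genes was not tested.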
